A study of Mus musculus with 9 samples.

Results

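RNA sequencing read counts of cyclopamine-treated whole embryonic mouse intestine were set against those of separated intestinal epithelium, gene by gene. The aim was to see which epithelial genes stood lower or higher than the typical epithelial gene. The epithelial share of the whole tissue was not measured. Epithelial genes were taken as those with a mean of at least 8 times as many counts scaled to a common library size (CPM) in epithelium as in mesenchyme, the connective and muscle layer around it. The rule found 1510 genes among 24013 identifiers, and 480 of them averaged at least 10 CPM in epithelium. The 3 cyclopamine-treated libraries came from whole intestine of wild type C57BL/6 embryos at stage E14.5, with 24 h of transwell culture given in the series design. The 3 epithelium libraries came from separated epithelial tissue, and the 3 mesenchyme libraries, which served only to pick the genes, from separated mesenchyme, both of the same strain, genotype and stage and with no agent. Whether epithelium and mesenchyme were themselves kept in culture is not stated. Whole intestine without the drug was not analysed here. Cyclopamine, culture and the difference between whole and separated tissue therefore cannot be told apart in any value below. The labels do not state whether a library is an embryo or a pool, so p-values reflect only how far these libraries spread, which may be technical.

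At this stage the gut tube is lined by endoderm-derived epithelium that begins to form villi. The epithelium secretes the hedgehog proteins Shh and Ihh, which act on the mesenchyme through the receptor Ptch1 and the signal transducer Smoothened, and the mesenchyme answers with signals that pattern the epithelium. Cyclopamine, a compound from the corn lily, binds Smoothened and so blocks this signal in the receiving cell. The maturing epithelium is known for an apical brush border of microvilli carrying digestive enzymes and transporters, for mucus-secreting goblet cells and hormone-secreting enteroendocrine cells, and for defence lectins of the Reg family.

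Promoters are shown for 3 genes at the ends of the range: the lectins Reg3b and Reg3g, which lay farthest below the other epithelial genes, and Mt1, which was higher in treated intestine than in epithelium. Each run holds the 150 bases before the annotated start on the gene's own strand, from RefSeq with the build GRCm38.p6. Reg3b is at chr6:78370735-78370884 on the plus strand and Reg3g at chr6:78468875-78469024 on the minus strand, and capitals mark the longest run shared by both, 20 bases next to the start.
Reg3b: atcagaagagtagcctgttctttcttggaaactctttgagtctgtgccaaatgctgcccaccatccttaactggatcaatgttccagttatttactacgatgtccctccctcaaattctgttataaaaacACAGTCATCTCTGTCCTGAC
Reg3g: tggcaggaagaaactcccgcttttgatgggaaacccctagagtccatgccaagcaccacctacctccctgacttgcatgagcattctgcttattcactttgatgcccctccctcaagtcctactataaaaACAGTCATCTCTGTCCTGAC
For Mt1, at chr8:94178939-94179088 on the plus strand, capitals mark the core of the metal response element, searched as TGCACNC or TGCGCNC on both strands. A promoter with several matches counts once.
Mt1: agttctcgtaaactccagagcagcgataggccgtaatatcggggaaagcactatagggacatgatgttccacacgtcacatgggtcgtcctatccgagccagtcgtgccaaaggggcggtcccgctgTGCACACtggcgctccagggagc
Over the same 150 bases, the metal response element core was found in 14.7% of 27025 promoters. The promoter table covers 346 of the 480 epithelial genes, or 72.1%. Shares were also counted by group of genes, but with this coverage they are not compared here. A match describes letters in this window and no binding was measured.

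The labelled tissues were checked against markers. Epcam, the epithelial cell adhesion molecule, held 552, 615 and 510 CPM in treated libraries 1 to 3, against 904, 972 and 953 CPM in epithelium 1 to 3 and a mean of 23.9 CPM in mesenchyme. The markers Muc2, the goblet cell mucin, and Sis, the brush border enzyme sucrase-isomaltase, were low at this stage. Muc2 averaged 7.79 times as much in epithelium as in mesenchyme and so fell just outside the rule. Whole tissue held what epithelium largely lacked: the summed CPM of 24 fibroblast and mesenchyme markers was 7640 to 8390 in treated intestine, against 1960, 617 and 464 in epithelium 1 to 3, and all 22 tested were higher in treated intestine. The smooth muscle (13 of 13 tested), enteric neural (15 of 15), endothelial (14 of 14), leukocyte (13 of 13), erythroid (9 of 10) and mesothelial (6 of 8) markers were likewise higher in treated intestine. Among all genes tested 37.2% were higher. The erythroid sum was 1450 to 1740 CPM in treated intestine, against 44 to 120 CPM in epithelium and 441 to 845 CPM in mesenchyme. Hbb-bh1 and Tbx18 were at 0 in every epithelium library. Epithelium 1 carried the largest sums of fibroblast, smooth muscle, neural, endothelial and mesothelial markers of the 3 epithelium libraries. Total counts were 14325792 to 18274881 in treated intestine, 19934048 to 22836297 in epithelium and 9739394 to 26357115 in mesenchyme, where library 1 was left with 3284702 counts after Rn45s, Lars2 and Mir6236 were removed.

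Gli1, a transcription factor that hedgehog signalling switches on in mesenchyme, held 3.02, 1.27 and 1.28 CPM in treated intestine, against 14.9, 5.75 and 2.71 CPM in epithelium and a mean of 244 CPM in mesenchyme. The treated libraries thus stood below separated mesenchyme, although they held fibroblast markers at the sums given above. They also lay at the lower end of the epithelium values, where 1 treated library overlapped: the log2 difference from epithelium was -2.07 (SE 0.67, adjusted p = 0.0244, edgeR's quasi-likelihood F test with Benjamini-Hochberg adjustment over all genes tested). The highest epithelium value came from library 1, which also held the largest fibroblast marker sum, and the difference was -1.2 without it (adjusted p = 0.0486). Without treated library 2 or 3 it was -1.88 (adjusted p = 0.0837) and -1.85 (adjusted p = 0.0808), no longer past the test. With each library scaled by its epithelial genes it was -0.69 (adjusted p = 0.31). Against the epithelial background described below, Gli1 deviated by -0.72 (SE 0.66, adjusted p = 0.325) and did not pass. That deviation was 0.16 without epithelium library 1. A level below that of the typical epithelial gene is thus not shown for Gli1. Over the list of hedgehog receptors and targets, 11 of 18 genes tested were higher and 2 lower in treated intestine than in epithelium. Among all genes tested 37.2% were higher and 35.5% lower. Osr2 was the list's only epithelial gene, with a deviation from that background of 0.16 (SE 0.26, adjusted p = 0.574), or 0.5 and past the test without epithelium library 3.

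Epithelial genes were lower in treated whole intestine almost throughout. Of the 480 genes, 426 (88.8%) were lower and 3 were higher at an adjusted p under 0.05, against 35.5% lower and 37.2% higher among all 15298 genes tested. The median log2 difference, treated intestine minus epithelium, was -1.36, with quartiles of -1.97 and -0.87, while over all genes tested the median was 0.01 with quartiles of -0.59 and 0.98. A typical epithelial gene thus stood at 39.1% of its level in epithelium, and the middle range of the genes at 25.4% to 54.7%. Values of the 3 and 3 libraries did not overlap for 433 genes in the lower direction (38.2% of all genes tested) and for 3 in the higher direction (39.7% of all genes tested). In these bulk samples fewer epithelial cells and less RNA per epithelial cell cannot be told apart. The genes were picked with the same epithelium libraries that the comparison uses, so the common shift is a description.

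The shift was close to even between libraries. The median epithelial gene stood at 41.2%, 41.2% and 34.3% of the mean of all epithelium libraries in treated libraries 1 to 3. In epithelium 1 to 3, each set against the mean of the remaining epithelium libraries, it stood at 97.5%, 104% and 97.2%. Treated library 3 was thus the lowest, and several genes below are lowest there too. The 3 genes higher in treated intestine were Mt1, Serpina1b and Tmprss4, and 5 were called higher when treated library 3 was left out.

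**Figure D1:**
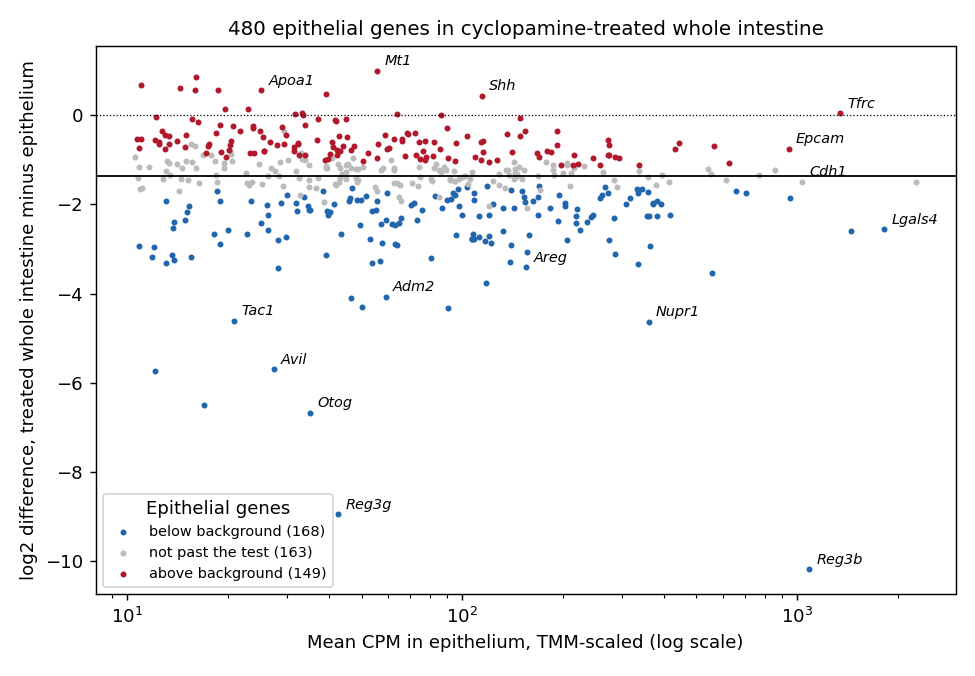
Log2 difference between treated whole intestine and epithelium (y axis) against the mean level in epithelium (x axis, TMM-scaled CPM, log scale) for the 480 epithelial genes of at least 10 CPM. The solid line is the median of these genes, -1.36, the dotted line is no difference, and colours give the test against the median: blue points lie below it, red points above it and grey points did not pass.

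The median of -1.36 served as the background against which each epithelial gene was read. With the null of the same test moved to it, 168 epithelial genes (35%) lay below the background and 149 (31%) above it, and 163 did not pass. Among all genes tested 3.13% lay below and 87.1% above, as follows from a null of -1.36 beside an all-gene median of 0.01, and nothing about epithelial genes is read from those shares. Most deviations were small: 370 genes stayed within 2-fold of the background, while 75 of those called lay at least 2-fold below and 35 at least 2-fold above. Once the epithelium values were lowered by the background, the 3 and 3 values of 311 of the 480 genes did not overlap. The share among all genes tested was not worked out, so nothing is read from this count. With a trend on GC content and transcript length removed the calls were 119 below and 181 above, and 259 of the 317 calls made without it were kept.

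Genes below the background had more GC-rich transcripts. The median GC content was 54.5% for genes below, 51.8% for genes that did not pass and 49.5% for genes above the background. Across the 469 genes with a transcript, the deviation and GC content had a Pearson r of -0.11 and a Spearman rho of -0.21, which describes these libraries only, since genes share libraries and their composition. The deviation also went with the log2 ratio of epithelium to mesenchyme (Pearson r -0.26, Spearman rho -0.15). The median gene stood at 42.3% of its epithelial level at ratios of 8 to 16 and at 15% at 64 or more, where 12 of 21 genes lay below and 3 above. Ratio and deviation share the epithelium values, so this is a description. At the edge of the rule, Cpne8 (8.008 times) and Ell3 (8.017 times) were just inside with log2 differences of -1.24 and -0.65, and Fxyd3 (7.974 times) and Mvp (7.98 times) just outside with -2.20 and -2.17.

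Genes of general epithelial structure lay on both sides of the background. Of 39 adhesion, keratin and related genes, 11 lay below and 9 above, beside 35% and 31% of the 480 genes. The other 19 did not pass, and the list's median deviation was -0.08. With the GC and length trend removed 6 lay below and 13 above, and in the fit of all 9 libraries 7 and 5. In the plain comparison with epithelium 38 of these 39 genes were lower and 0 higher, beside 88.8% lower among the 480 genes. Cdh1, the adhesion molecule E-cadherin, held 371, 389 and 344 CPM in treated intestine, against 966, 1093 and 1050.0 CPM in epithelium. Its deviation from the background was -0.14 (SE 0.08, adjusted p = 0.144), and it was called below at -0.24 with the 4-fold rule and at -0.25 with the background taken over all tested epithelial genes. Cdh17, the intestinal liver-intestine cadherin, deviated by 0.00 (SE 0.08, adjusted p = 0.977) and the keratins Krt8, Krt7 and Krt19 by 0.14, 0.05 and -0.11, none past the test, although Krt8 and Krt7 passed at 0.31 and 0.23 with the GC and length trend removed. The treated values of these genes were well apart from epithelium and lay near the level that the typical epithelial gene had.

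Epcam departed upward from that level. Its treated libraries all lay under the epithelium libraries, at 59.3% of the epithelial mean, yet above the 39.1% of the typical gene, and the deviation was 0.60 (SE 0.09, adjusted p = 0.000324). Mal2, a protein of apical membrane traffic, and Pkp2, a desmosome component, deviated by 0.78 (SE 0.09, adjusted p = 6.75e-05) and 0.77 (SE 0.08, adjusted p = 4.95e-05). Tspan1, a tetraspanin, deviated by 0.95 (SE 0.33, adjusted p = 0.0252), but its values overlapped and the call was lost without treated library 1 (0.93), treated library 2 (0.77) or epithelium library 2 (0.68), as well as in the fit of all 9 libraries. In the other direction stood Lgals4, galectin-4 of the apical membrane. It held 347, 353 and 224 CPM in treated intestine, against 1848, 2029 and 1573 CPM in epithelium, with no overlap and a deviation of -1.21 (SE 0.19, adjusted p = 0.000468). The splicing factors Esrp1 and Esrp2, which set epithelial isoforms, deviated by -0.51 (SE 0.07, adjusted p = 0.0003) and -0.68 (SE 0.09, adjusted p = 0.000135), the first not past the test in the fit of all 9 libraries.

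The tight junction seals the space between epithelial cells, with claudins and occludin in the membrane and a protein scaffold below it. Of 11 such genes, 4 lay below and 6 above the background, beside 35% and 31% of the 480 genes. The median deviation was 0.35. The scaffold genes Tjp3 and Cgn were among those below, at -0.43 (SE 0.11, adjusted p = 0.00566) and -0.39 (SE 0.08, adjusted p = 0.00239). With the GC and length trend removed these stood at 0.01 and 0.04 and did not pass, and 2 genes of the list lay below. The membrane genes Ocln, Cldn3, Cldn4, Cldn8, Cldn23 and Cldn6 were those above, by 0.35 to 1.35, of which Cldn3 did not pass in the fit of all 9 libraries. Cldn6, a claudin of embryonic epithelia, held 69.9, 87.5 and 100 CPM in treated intestine, against 66.2, 83.1 and 110 CPM in epithelium. These ranges overlapped widely and the deviation from the background was 1.35 (SE 0.21, adjusted p = 0.000411). Cldn2, which forms pores for cations, held 22.2, 16.9 and 11.7 CPM in treated intestine, against 142, 104 and 76.2 CPM in epithelium. It was the claudin below the background, with no overlap and a deviation of -1.31 (SE 0.29, adjusted p = 0.00299).

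Among 20 transcription factors of endoderm and gut, 4 lay below and 6 above the background, beside 35% and 31% of the 480 genes. The other 10 did not pass, and the median deviation was 0.11. The fit of all 9 libraries called 1 below and 3 above, and the one with the GC and length trend removed 2 below and 9 above. Gata4, Gata6, Isx, Cdx1 and Sox9 were among those that did not pass, with deviations between -0.13 and 0.13. With that trend removed Gata4 and Gata6 passed at 0.43 and 0.46, and without epithelium library 3 Sox9 and Gata6 passed at 0.29 and 0.19. Cdx2, which sets intestinal identity, held 147, 165 and 133 CPM in treated intestine, against 252, 284 and 320 CPM in epithelium. The libraries did not overlap, and Cdx2 deviated upward by 0.41 (SE 0.11, adjusted p = 0.00915), a call lost in the fit of all 9 libraries, as were those of Foxa1 and Hnf4a. Foxa1 and Foxa3, pioneer factors of endoderm, both deviated by 0.89 (adjusted p = 0.000311 and 3.06e-05), Hnf4a by 0.60 (SE 0.09, adjusted p = 0.000479) and the nuclear receptor Esrrg by 1.28 (SE 0.20, adjusted p = 0.00048). Creb3l3, a membrane-bound factor of lipid metabolism, was the farthest below: 0.924, 1.80 and 1.22 CPM in treated intestine, against 17.8, 12.4 and 5.37 CPM in epithelium. Its libraries did not overlap and the deviation was -1.82 (SE 0.48, adjusted p = 0.00789).

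**Figure D2:**
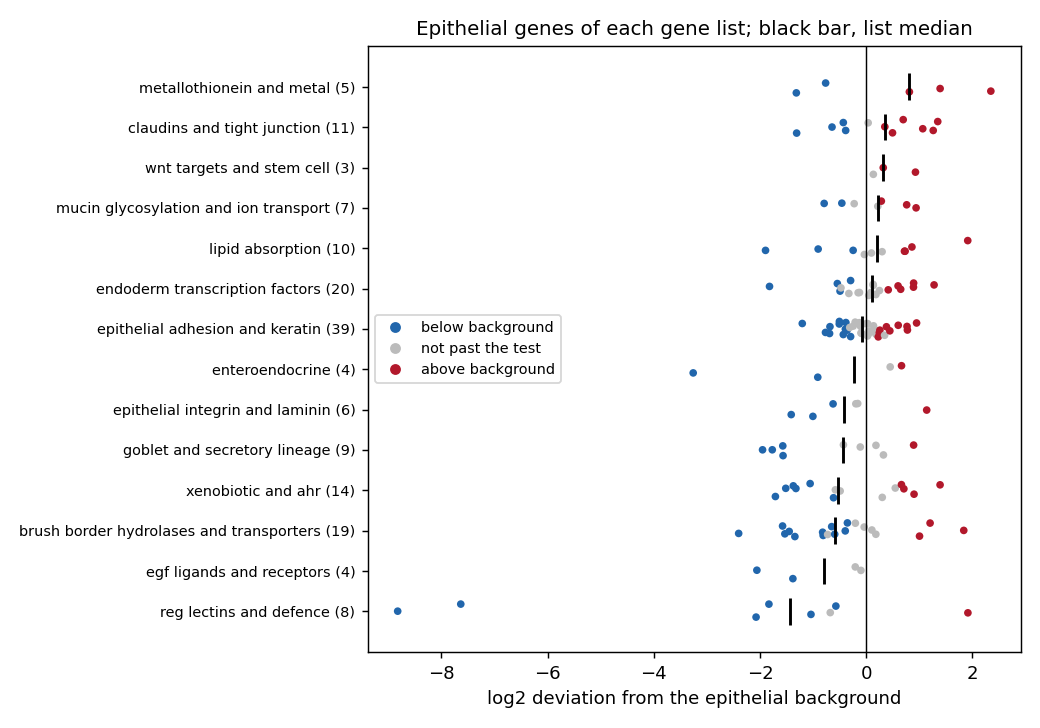
Log2 deviation from the epithelial background (x axis) of each epithelial gene of at least 10 CPM. Rows are the gene lists with at least 3 such genes, cell type marker lists aside, with the number of genes in brackets. Points are coloured by the test against the background and black bars are list medians, which run from -1.44 for Reg lectins and defence to 0.81 for metallothionein and metal genes.

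Brush border genes lay mostly below the background. Of 19 genes for hydrolases, transporters and microvillus proteins, 11 lay below and 3 above, beside 35% and 31% of the 480 genes. The other 5 did not pass, and the median deviation was -0.59. Both the fit of all 9 libraries and the one with the GC and length trend removed left 6 below. Myo1a, the myosin that links the microvillus core to its membrane, held 10.5, 7.16 and 8.30 CPM in treated intestine, against 128, 119 and 105 CPM in epithelium. No treated library came near an epithelium library, and the deviation was -2.40 (SE 0.15, adjusted p = 3.57e-06). Genes for the microvillus tip link and its anchor also lay below: Cdhr5 by -1.34 (SE 0.17, adjusted p = 0.000158), Cdhr2 by -0.40 (SE 0.13, adjusted p = 0.0197), Ush1c by -0.65 (SE 0.15, adjusted p = 0.00446) and Myo7b by -0.59 (SE 0.12, adjusted p = 0.00165). With that trend removed Cdhr2, Ush1c and Myo7b stood at -0.1, -0.34 and 0.07 and did not pass, nor did they in the fit of all 9 libraries, and Cdhr2 did not pass without treated library 2 (-0.38) or epithelium library 3 (-0.29). The actin regulators Eps8l2 and Eps8l3 deviated by -1.45 (SE 0.13, adjusted p = 2.46e-05) and -1.58 (SE 0.23, adjusted p = 0.000348).

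Villin, the actin bundler encoded by Vil1, moved less. It held 118, 112 and 98.0 CPM in treated intestine, against 357, 375 and 347 CPM in epithelium, with no overlap and a deviation of -0.36 (SE 0.08, adjusted p = 0.00395). That call was lost in the fit with the GC and length trend removed, at -0.16, and in the fit of all 9 libraries. Plastin 1, the bundler encoded by Pls1, did not pass, at 0.18 (SE 0.08, adjusted p = 0.0542), though it did without treated library 2, at 0.24. Alpi, intestinal alkaline phosphatase, had 3.70, 3.48 and 2.87 CPM in treated intestine, against 15.2, 20.1 and 9.99 CPM in epithelium, a deviation of -0.82 (SE 0.27, adjusted p = 0.0221). That call was lost without treated library 1 (-0.84), treated library 2 (-0.83), treated library 3 (-0.82) or epithelium library 2 (-0.59), and in the fits of all 9 libraries and with the GC and length trend removed. Sis itself was under 10 CPM, at 0.370, 0.0669 and 0.0532 CPM in treated intestine, against 2.97, 1.56 and 2.18 CPM in epithelium. Its values did not overlap and it deviated by -2.42 (SE 0.63, adjusted p = 0.00701), or by -3.76 without treated library 1.

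The 3 brush border genes above the background were Mgam, maltase-glucoamylase, at 1.003 (SE 0.15, adjusted p = 0.000362) but not past the test in the fit of all 9 libraries, Espn, the actin bundler espin, at 1.20 (SE 0.27, adjusted p = 0.00375), and Mep1a. Mep1a, the alpha subunit of the protease meprin, held 71.0, 62.0 and 31.2 CPM in treated intestine, against 34.8, 24.8 and 58.2 CPM in epithelium. The ranges overlapped, the plain difference did not pass (adjusted p = 0.288) and the deviation from the background was 1.84 (SE 0.39, adjusted p = 0.00261). Guanylate cyclase C, encoded by Gucy2c and the receptor for guanylin, was at the background, with a deviation of -0.04 (SE 0.10, adjusted p = 0.724).

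Genes of dietary fat handling lay on both sides, in shares near those of all 480 genes, 35% below and 31% above. Of 10, 3 lay below, 4 above and 3 did not pass, with a median deviation of 0.20. Abcg5, which with Abcg8 pumps sterols back into the lumen, held 1.355, 1.605 and 1.384 CPM in treated intestine, against 16.1, 13.3 and 11.9 CPM in epithelium. Its values did not overlap and the deviation was -1.90 (SE 0.19, adjusted p = 3.68e-05). Its partner Abcg8, under 10 CPM in epithelium, deviated by -2.65 (SE 0.57, adjusted p = 0.0027), and by -3.85 without treated library 1. Mttp, which loads lipid onto apolipoprotein B, deviated by -0.91 (SE 0.21, adjusted p = 0.0041). Apob itself lay above the background, by 0.72 (SE 0.15, adjusted p = 0.00206), as did the fatty acid binding protein gene Fabp2, by 0.86 (SE 0.22, adjusted p = 0.00725). Apoa1, the main protein of high density lipoprotein, held 40.4, 47.5 and 22.9 CPM in treated intestine, against 18.4, 30.3 and 26.5 CPM in epithelium and a mean of 0.766 CPM in mesenchyme. Its ranges overlapped, the plain difference was 0.56 (adjusted p = 0.122) and the deviation was 1.91 (SE 0.30, adjusted p = 0.00047).

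Goblet cell genes lay on both sides of the background or did not pass, and so short a list is not set apart from the 480 genes. Of 9 secretory genes, 4 lay below and 1 above, beside 35% and 31% of the 480 genes, and 4 did not pass. The median deviation was -0.43, and 1 gene lay below without treated library 2. Agr2, a disulfide isomerase needed to fold Muc2, held 8.56, 3.41 and 1.597 CPM in treated intestine, against 43.3, 32.2 and 42.2 CPM in epithelium. Treated library 1 was the highest of the treated group and still below every epithelium library, and the deviation was -1.77 (SE 0.50, adjusted p = 0.0106), or -2.58 without that library. Fcgbp, a mucus protein, deviated by -1.57 (SE 0.50, adjusted p = 0.0188), or by -2.41 without treated library 1. It did not pass without treated library 2 (-1.3) or epithelium library 2 (-1.42), or with the GC and length trend removed (-0.61). Ern2, the stress sensor of mucus cells, deviated by -1.57 (SE 0.45, adjusted p = 0.0118), by -2.38 without treated library 1 and, no longer past the test, by -1.31 without treated library 2. Clca3, a secreted goblet cell protein, deviated by -1.95 (SE 0.70, adjusted p = 0.0298). That value was -3.55 without treated library 1, and the call was lost without treated library 2 (-1.52), treated library 3 (-1.6) or epithelium library 3 (-1.81).

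Muc2 held 0.493, 0.201 and 0 CPM in treated intestine, against 17.9, 8.13 and 7.65 CPM in epithelium and a mean of 1.37 CPM in mesenchyme. Every treated library lay below the mesenchyme mean, but the mesenchyme libraries varied, at 2.74, 0.204 and 1.18 CPM. Treated library 1 lay above mesenchyme library 2, so the single values overlapped. The deviation was -4.28 (SE 0.73, adjusted p = 0.000763), or -5.50 without treated library 1. Tff3, the trefoil peptide, and Spdef, a regulator of goblet cell maturation, did not pass, at -0.11 (SE 0.48, adjusted p = 0.828) and 0.32 (SE 0.36, adjusted p = 0.411), although Spdef passed at 0.56 without treated library 3. Both varied among treated libraries: Tff3 held 53.0, 39.9 and 10.6 CPM in treated intestine, against 104, 84.6 and 96.8 CPM in epithelium. Atoh1, the factor that commits cells to the secretory lineage, was under 10 CPM, at 4.62, 4.41 and 2.55 CPM in treated intestine, against 3.02, 3.41 and 5.74 CPM in epithelium, and deviated by 1.28 (SE 0.34, adjusted p = 0.00769).

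Of 4 enteroendocrine genes, 2 lay below, 1 above and 1 did not pass, beside 35% below and 31% above among the 480 genes. So short a list is not set apart by these counts. Tac1, the precursor of the peptide substance P, held 1.66, 0.468 and 0.426 CPM in treated intestine, against 25.9, 19.1 and 17.4 CPM in epithelium. The groups lay far apart and the deviation was -3.26 (SE 0.45, adjusted p = 0.000222), or -4.12 without treated library 1. Chgb, the granule protein chromogranin B, deviated by -0.91 (SE 0.20, adjusted p = 0.00278). Fev, a factor of serotonin-producing cells, was under 10 CPM and deviated by -1.82 (SE 0.33, adjusted p = 0.00113). Neurog3, which starts the enteroendocrine programme, lay above the background instead, with 12.4, 9.56 and 10.3 CPM in treated intestine, against 16.4, 15.97 and 19.7 CPM in epithelium, and a deviation of 0.66 (SE 0.15, adjusted p = 0.00374).

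Reg lectins and other defence genes had the lowest median of the lists plotted. Of 8 genes, 6 lay below and 1 above, beside 35% and 31% of the 480 genes, and 1 did not pass. The median deviation was -1.44. Over the whole list of 36 tested genes, however, 13 were lower and 11 higher than in epithelium. Those counts are near the 35.5% lower and 37.2% higher of all genes tested. Reg3b, a secreted lectin that protects the mucosa and a sister gene of the antibacterial Reg3g, held 2.22, 0.669 and 0 CPM in treated intestine, against 2859, 283 and 112 CPM in epithelium and a mean of 5.52 CPM in mesenchyme. No treated library came within reach of an epithelium library, but the epithelium libraries themselves spread widely, with library 1 the highest by far. The deviation was -8.82 (SE 1.71, adjusted p = 0.00153), and it was -6.37 without epithelium library 1 and -10.39 without treated library 1. Reg3g held 0.0616, 0.201 and 0 CPM in treated intestine, against 113, 9.88 and 4.73 CPM in epithelium, in the same order of epithelium libraries as Reg3b. Its deviation was -7.64 (SE 1.98, adjusted p = 0.00706), with -5.08 without epithelium library 1 and -9.01 without treated library 2. The treated libraries held so few reads of both genes that the size of these differences is imprecise. Epithelium library 1, where both lectins were highest, also held the largest fibroblast marker sum, 1960 CPM against 617 and 464 CPM in the other 2, and both calls held without it at the values just given. Both lectins are related in sequence, so reads may have been shared between them.

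Reg4, a further lectin of the family, held 2.10, 2.27 and 0.798 CPM in treated intestine, against 18.1, 10.3 and 18.01 CPM in epithelium, and deviated by -1.83 (SE 0.39, adjusted p = 0.00271). Unlike Reg3b it was even between epithelium libraries. Lcn2, an iron-chelator binding defence protein of under 10 CPM, held 0, 0.201 and 0.319 CPM in treated intestine, against 19.2, 6.52 and 4.30 CPM in epithelium. It was again highest in epithelium library 1, and the deviation of -4.42 (SE 0.91, adjusted p = 0.00218) was -3.53 without that library, -3.81 without treated library 1 and -5.39 without treated library 3. S100g, the calcium binding protein calbindin-D9k, was the list's gene above the background, at 26.4, 38.7 and 17.5 CPM in treated intestine, against 11.6, 27.8 and 16.6 CPM in epithelium. These ranges overlapped, and the deviation was 1.91 (SE 0.39, adjusted p = 0.00204).

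The hedgehog ligands parted. Ihh held 71.8, 86.2 and 63.4 CPM in treated intestine, against 162, 204 and 200 CPM in epithelium, and the deviation was 0.00 (SE 0.13, adjusted p = 0.984), although with the GC and length trend removed it was 0.39 and past the test. Shh held 165, 149 and 148 CPM in treated intestine, against 69.3, 105 and 169 CPM in epithelium and a mean of 5.42 CPM in mesenchyme. The groups overlapped through epithelium library 3, and the plain log2 difference of 0.43 (SE 0.28) did not pass (adjusted p = 0.206), while it was 0.8 without that library (adjusted p = 0.00539). Against the background the deviation was 1.79 (SE 0.29, adjusted p = 0.000596), and it stayed between 1.54 and 2.20 when any 1 library was left out.

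Of 4 ligands of the EGF receptor, which drive epithelial growth, 2 lay below, 0 above and 2 did not pass. Among the 480 genes 35% lay below and 31% above, and 4 genes are too few to set beside that. Areg, amphiregulin, held 16.5, 14.4 and 12.8 CPM in treated intestine, against 181, 140 and 144 CPM in epithelium, with a deviation of -2.06 (SE 0.14, adjusted p = 4.9e-06). Ereg, epiregulin, held 5.42, 3.94 and 4.04 CPM in treated intestine, against 28.2, 29.8 and 31.6 CPM in epithelium, with a deviation of -1.38 (SE 0.15, adjusted p = 6.46e-05). In both genes the libraries of a group were close together and the groups well apart. Btc and Tgfa, further ligands of this receptor, did not pass, at -0.21 (SE 0.12, adjusted p = 0.15; -0.42 and past the test without treated library 3) and -0.10 (SE 0.12, adjusted p = 0.446). Cdkn1a, the cell cycle inhibitor p21, deviated by -0.90 (SE 0.12, adjusted p = 0.000156).

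Of 3 stem cell and Wnt genes, Sox9 did not pass, while Hopx deviated by 0.93 (SE 0.15, adjusted p = 0.000624) and Rnf43, a Wnt receptor ligase, by 0.32 (SE 0.09, adjusted p = 0.012), a call lost without treated library 3 at 0.19 and in 6 other alternatives, among them the fit of all 9 libraries and the 4-fold rule (0.21). Lgr5, the stem cell receptor, averaged 6.86 times as much in epithelium as in mesenchyme and so was outside the rule. It held 31.1, 26.4 and 24.5 CPM in treated intestine, against 18.8, 10.1 and 47.7 CPM in epithelium, a group that enclosed the treated values. Its deviation of 1.46 (SE 0.51, adjusted p = 0.026) was no longer past the test without treated library 1 (1.41), treated library 2 (1.5) or treated library 3 (1.43) or in the fit of all 9 libraries, and was 2.28 without epithelium library 3. Ascl2, a Wnt target of under 10 CPM, deviated by 1.63 (SE 0.44, adjusted p = 0.00873), and by 2.36 without epithelium library 3.

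Genes that modify and export foreign compounds lay on both sides. Of 14, 6 lay below and 4 above, beside 35% and 31% of the 480 genes. The other 4 did not pass, and the median deviation was -0.54. Abcc2, an apical export pump, held 21.5, 19.0 and 15.6 CPM in treated intestine, against 159, 175 and 135 CPM in epithelium, a deviation of -1.71 (SE 0.14, adjusted p = 1.42e-05). Abcb1a, another export pump, deviated by -1.06 (SE 0.19, adjusted p = 0.000926). Ugt1a1, Ugt1a6a and Ugt1a7c, which conjugate glucuronic acid, deviated by -1.52 (adjusted p = 0.00291), -1.37 (adjusted p = 0.0055) and -1.32 (adjusted p = 0.00684). These 3 genes share their last exons, so reads may be shared between their counts. The related Ugt2b35 held 67.6, 63.8 and 63.97 CPM in treated intestine, against 56.6, 71.3 and 62.9 CPM in epithelium, with full overlap and a deviation of 1.39 (SE 0.10, adjusted p = 6.26e-06). Its neighbour in the family, Ugt2b34, deviated by 0.66 (SE 0.12, adjusted p = 0.000849), and reads may be shared among these close copies.

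Of 5 metal-handling genes, 2 lay below and 3 above the background, beside 35% and 31% of the 480 genes. With so few genes nothing is read from these counts. Mt1, the metallothionein that binds zinc and copper, held 100, 152 and 80.2 CPM in treated intestine, against 59.1, 65.0 and 43.1 CPM in epithelium and a mean of 4.55 CPM in mesenchyme. Every treated library lay above every epithelium library, the plain log2 difference was 0.99 (SE 0.25, adjusted p = 0.00899) and the deviation was 2.35 (SE 0.26, adjusted p = 6.67e-05). The plain call was lost in the fit of all 9 libraries, at 0.94 (adjusted p = 0.0634). Tfrc, the transferrin receptor for iron uptake, held 1298, 1279 and 1545 CPM in treated intestine, against 1096, 1421 and 1505 CPM in epithelium and a mean of 156 CPM in mesenchyme. The groups overlapped and the deviation was 1.39 (SE 0.14, adjusted p = 4.07e-05). Red cell precursors also carry this receptor, and the erythroid sum was higher in treated intestine than in either layer, as given above. Its part in the Tfrc value was not tested. Below the background were the zinc importer Slc39a4, by -0.77 (SE 0.21, adjusted p = 0.00902; not past the test at -0.48 with the GC and length trend removed), and the metalloreductase family gene Steap1, by -1.32 (SE 0.14, adjusted p = 5.4e-05).

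The 2 genes of the liver and pancreas list that reached 10 CPM, Serpina1b and Afp, were both above the background. Among the 480 genes 31% lay above it, and nothing is read from a count of 2. Serpina1b, an alpha-1 antitrypsin, held 33.5, 29.9 and 24.0 CPM in treated intestine, against 15.5, 11.8 and 20.8 CPM in epithelium and a mean of 1.31 CPM in mesenchyme. No values overlapped, the plain log2 difference was 0.86 (SE 0.22, adjusted p = 0.0102) and the deviation was 2.22 (SE 0.23, adjusted p = 4.81e-05). Serpina1c, a near-identical copy with which reads may be shared, averaged under 10 CPM in epithelium and deviated by 2.79 (SE 0.20, adjusted p = 6.8e-06). Afp, alpha-fetoprotein, held 20.8, 31.3 and 18.5 CPM in treated intestine, against 10.8, 20.2 and 16.8 CPM in epithelium, overlapping, with a deviation of 1.92 (SE 0.29, adjusted p = 0.000365). Otc, the urea cycle enzyme ornithine transcarbamylase, held 19.6, 17.1 and 9.53 CPM in treated intestine, against 3.89, 4.58 and 6.75 CPM in epithelium, with no overlap and a deviation of 2.96 (SE 0.33, adjusted p = 7.04e-05). Over the whole liver and pancreas list, 10 of 14 genes tested were higher in treated intestine and 0 lower, beside 37.2% and 35.5% of all genes tested. Whether liver or pancreas tissue was carried along was not tested.

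**Figure D3:**
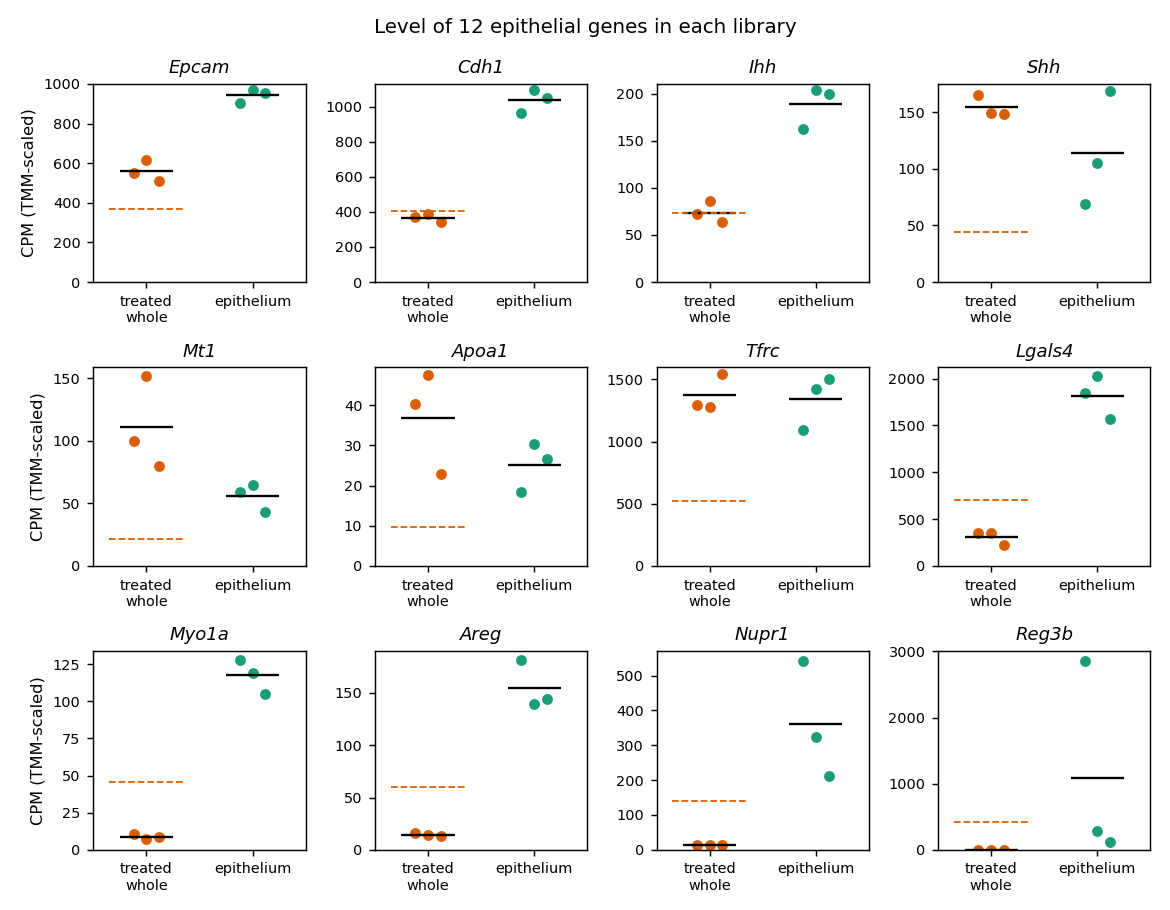
Level in TMM-scaled CPM (y axis, from 0) of 12 epithelial genes in the 3 treated whole intestine libraries (orange) and the 3 epithelium libraries (green). Black bars are group means and the dashed orange line is the epithelial mean at the background of 39.1%: the Cdh1 and Ihh libraries lie near it, those of Epcam, Shh, Mt1, Apoa1 and Tfrc above it and those of Lgals4, Myo1a, Areg, Nupr1 and Reg3b below it.

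The genes farthest below the background, beside Reg3b, Reg3g and Tac1, were of mixed function. Otog, the inner ear matrix protein otogelin, held 0.308, 0.134 and 0.532 CPM in treated intestine, against 40.0, 29.9 and 35.4 CPM in epithelium. It was near 0 in every treated library and even across epithelium, and deviated by -5.33 (SE 0.31, adjusted p = 2.81e-06), or -6.01 without treated library 3. Bcl2l15, of the Bcl2 apoptosis family, deviated by -5.17 (SE 0.89, adjusted p = 0.000796), or -4.14 without epithelium library 1, where it was highest. Nxf7, of a nuclear RNA export family, deviated by -4.40 (SE 0.44, adjusted p = 3.91e-05).

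Avil, advillin of the villin family, held 0.616, 0.401 and 0.532 CPM in treated intestine, against 43.9, 26.1 and 11.96 CPM in epithelium and a mean of 1.75 CPM in mesenchyme. It deviated by -4.35 (SE 0.58, adjusted p = 0.000191). Of the 480 genes it was the 1 whose every treated value lay below every value of both layers, while those of Mt1, Serpina1b and Tmprss4 lay above every value of both. Nupr1, a stress-induced chromatin protein, held 14.66, 14.51 and 14.37 CPM in treated intestine, against 543, 325 and 212 CPM in epithelium and a mean of 33.5 CPM in mesenchyme. The treated libraries were nearly identical while epithelium varied, and the deviation was -3.28 (SE 0.34, adjusted p = 4.3e-05).

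Adm2, the vasoactive peptide intermedin, held 3.27, 3.68 and 3.57 CPM in treated intestine, against 62.6, 52.9 and 61.3 CPM in epithelium. Both groups were tight, and the deviation was -2.72 (SE 0.12, adjusted p = 1.15e-06). Tcf23, a helix-loop-helix factor, and Clec2e, a C-type lectin, both deviated by -2.96 (adjusted p = 2.84e-05 and 7.04e-05). The predicted gene Gm11545 deviated by -2.75 (SE 0.64, adjusted p = 0.00408), or by -1.94 without epithelium library 1.

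Among genes of at least 10 CPM in the higher group, those farthest above the background were Nepn, Otc and Serpina1c, all under 10 CPM in epithelium and kept through the treated group. Cldn18 and Fgb, under 10 CPM in both groups, deviated by 4.59 (SE 0.36) and 3.61 (SE 0.35). They averaged 0.160 and 0.456 CPM in epithelium and entered the test through their treated values. Genes so low in epithelium could be tested only where treated intestine was high, so these deviations are given as description only. Nepn, nephrocan, a secreted protein known from early mouse endoderm, held 12.8, 11.4 and 18.9 CPM in treated intestine, against 1.05, 4.38 and 0.903 CPM in epithelium and a mean of 0.114 CPM in mesenchyme. All treated libraries lay above all epithelium libraries, the plain log2 difference was 2.76 (SE 0.57, adjusted p = 0.0035) and the deviation was 4.12 (SE 0.60, adjusted p = 0.000299), or 5.2 without epithelium library 2. Tmprss4, a membrane serine protease, held 19.3, 18.7 and 14.4 CPM in treated intestine, against 10.02, 9.35 and 13.6 CPM in epithelium. These did not overlap, and the plain difference of 0.67 (SE 0.19) passed (adjusted p = 0.0148), but not without treated library 1 (0.59, adjusted p = 0.0581) or epithelium library 2 (0.54, adjusted p = 0.0528). The FGF carrier gene Fgfbp1 deviated by 1.97 (SE 0.41, adjusted p = 0.00223). The gap junction gene Gjb1 averaged under 10 CPM in epithelium and was also kept through the treated group. Its deviation of 2.03 (SE 0.28), like those of Nepn, Otc and Serpina1c, is given as description only. The plain differences of Gjb1 and Fgfbp1 from epithelium did not pass (adjusted p = 0.0543 and 0.201).

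Genes anchoring the epithelium to its basement membrane, and genes for mucin sugars and ion transport, held members on both sides. Among the 480 genes 35% lay below and 31% above, and the counts of these short lists are not set apart from that. Of 6 integrin, laminin and related genes, 3 lay below, 1 above and 2 did not pass. Itgb4, the integrin of hemidesmosomes, deviated by -1.005 (SE 0.11, adjusted p = 7.17e-05), though by -0.09 and no longer past the test with the GC and length trend removed. Itgb6, an integrin that activates TGF-beta, deviated by 1.14 (SE 0.12, adjusted p = 4.33e-05). Of 7 sugar and ion transport genes, 2 lay below, 3 above and 2 did not pass, among these the chloride channel gene Cftr, at 0.22 (SE 0.15, adjusted p = 0.193), which passed without epithelium library 3 at 0.39. Car8, a carbonic anhydrase relative, deviated by 0.94 (SE 0.10, adjusted p = 6.25e-05).

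Genes of the rule below 10 CPM gave less. Of the 1510 genes, 775 were too low to be tested, with a highest epithelial mean of 1.21 CPM and a median of 0.0294 CPM, and 700 of them were at 0 in mesenchyme. A further 255 were tested at 0.153 to 9.99 CPM in epithelium, with a median log2 difference of -1.03. Of these, 29 lay below and 83 above the background. A low gene passes the count filter more readily where treated intestine is high, so these counts describe the genes tested and are not set against those of the 480.

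The Notch, sterol synthesis and DNA replication lists held no epithelial gene of at least 10 CPM, so that no deviation can be given for them. In the plain comparison 3 Notch genes were lower and 13 higher of 20 tested, 5 sterol and fatty acid synthesis genes were lower and 22 higher of 36, and 12 replication and mitosis genes were lower and 7 higher of 33, beside the 35.5% lower and 37.2% higher of all genes. These genes are used by cells of both layers, and the values do not separate them.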

How the data were processed

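The authors deposited whole read counts per RefSeq identifier for epithelium, mesenchyme and treated whole intestine. Per the submitters' processing notes, TopHat2 2.0.13, DESeq and the build mm9 were used; the counting program and strand setting are not named there, so overlapping, antisense or copied genes are uncertain. Of 24016 identifiers, Rn45s, Lars2 and Mir6236 were removed, and 27 symbols that had become dates were restored by accession. The rule used CPM by library size. The comparison used edgeR 4.0.16 (R 4.3.3) with TMM scaling, genes kept by filterByExpr (minimum count 10), quasi-likelihood F test, two-sided, Benjamini-Hochberg adjustment over all genes tested and a threshold of 0.05. Printed CPM of treated intestine and epithelium are TMM-scaled, those of mesenchyme are not; log2 differences are treated minus epithelium and deviations subtract the median of the 480 genes; the SE is the size over the square root of F. The uncertainty of that median is not in the SE.

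Genes and lists were chosen with earlier results of these data known. Named are the 12 largest deviations per direction. These were taken among genes past the test, without overlap after the shift and with at least 10 CPM in the higher group. Also named are 11 markers and up to 3 epithelial genes per list. The latter are those with the largest deviations past the test, also under 10 CPM, and so need not be typical of their list. Cdh17, Krt7, Krt8, Krt19, Esrp1, Esrp2, Pkp2, Tjp3, Cgn, Ocln, Cldn3, Cldn4, Cldn8, Cldn23, Gata4, Gata6, Hnf4a, Isx, Cdx1, Sox9, Foxa1, Cdhr2, Cdhr5, Ush1c, Myo7b, Eps8l2, Eps8l3, Pls1, Alpi, Mgam, Espn, Gucy2c, Mttp, Apob, Fabp2, Fcgbp, Tff3, Spdef, Atoh1, Neurog3, Reg4, Btc, Tgfa, Abcb1a, Ugt1a6a, Ugt1a7c, Ugt2b34, Slc39a4, Osr2 and Cftr were added after their values were seen. The test was checked on simulated data. Library pairs of a group differed beyond sampling noise.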

Additional observations from a re-analysis of the deposited data

How the results depend on the processing

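No called deviation of the 71 genes picked by the naming rule changed sign under any alternative. Of the 50 genes added later, Cgn (-0.39, then 0.04), Myo7b (-0.59, then 0.07) and Tjp3 (-0.43, then 0.01) did with the GC and length trend removed, where they did not pass. The counts stayed within 1.5 times except as follows. Of the 480 genes, 5 instead of 3 were higher without treated library 3. With the rule set at 4-fold 256 genes lay below the background, and at 16-fold 101 lay below and 94 above. Leaving out each library in turn gave 150 to 166 genes below and 137 to 145 above the background, a median of -1.409 to -1.258, 417 to 433 epithelial genes lower and 2 to 5 higher, and over all genes 4851 to 5426 lower and 5236 to 5690 higher. The replicate numbers did not pair the libraries (correlations of deviations 0.003, 0.098 and -0.207, no library nearest to its own number), and with a replicate block 167 genes lay below and 153 above. DESeq2 1.42.0 gave 168 and 149 and kept 314 of the 317 calls, while the fit of all 9 libraries gave 131 and 111, with 242 kept. Scaling each library by its epithelial genes, which raises every gene by about the size of the background, gave 162 and 143. Genes chosen with 1 epithelium library and tested against the other 2 gave 149 to 159 below and 134 to 140 above. The GC and length trend and a stricter threshold of 0.01 (129 below, 112 above) were chosen after seeing the data. Under the first, 1 call turned to the other side: AI661453, named here after its values were seen, with -0.39 in the comparison as reported and 0.3 with the trend removed. The smallest treated values rest on few reads, which limits the size of the largest deviations.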
